A study of Mus musculus with 2207 samples.

Results

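The nuclei labelled Neuron made up 1664 of the 2207 single nuclei of mouse cortex, and their RNA was compared with that of the 397 nuclei labelled Oligodendrocyte and of the nuclei labelled Microglia, which were the rest. They were taken by the deposited cell type label, matched by column name. The study sorted nuclei of C57BL/6 mice (C57BL6/J in the study's methods) of 14 weeks, all given tamoxifen at 100 mg/kg 2 times from 3 weeks of age, into wells and sequenced their total RNA by RamDA-seq, a random-primed full-length method. Each pool mixed the nuclei of 3 male mice of 1 genotype, with no label tying a nucleus to a mouse. The 96-well plates held a WT pool (Ehmt1+/+) and a pool labelled Ehmt1 Δ/+, with 1 deleted allele of Ehmt1, the gene of the histone methyltransferase GLP. The 384-well plates held 4 pools that all carried the inducible transgene Ehmt1 iTg. By their labels, WT (Ehmt1+/+) and Ehmt1 Δ/+ mice of these plates had no CamKII-CreER, whereas the pools called iTg (Ehmt1+/+) and Ehmt1 Δ/+;iTg had it. The study's text instead describes all 4 genotypes of these plates as carrying CamKII-CreER. The labels were followed, and what sets the induced pools apart rests on them. CamKII-CreER is a tamoxifen-activated recombinase under a promoter used in forebrain excitatory neurons, so glia and most inhibitory neurons are not its target. Values of the 6 pools are always given in this order: on 96-well plates WT before Ehmt1 Δ/+, and on 384-well plates WT first, Ehmt1 Δ/+ next, iTg after it and Ehmt1 Δ/+;iTg last. The 96-well pools held 518 and the 384-well pools 1146 of the neurons.

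Neurons of the cortex pass signals at synapses. Excitatory neurons release glutamate, inhibitory neurons release GABA, and both share the proteins that dock and fuse vesicles, the receptors that read the transmitter and the channels that shape the action potential. Oligodendrocytes wrap axons in myelin and microglia are the resident immune cells. A nucleus holds newly made and retained RNA, so its noncoding RNAs and unspliced transcripts weigh more than in a whole cell. The study set the cell types from clusters of these same nuclei with marker genes and removed nuclei of weak type, so the differences between neurons and glia are given as a description, without a test. A gene was counted as higher or lower when its mean RPKM (reads scaled to gene length and library size), with 0.1 added, differed at least 2-fold in the same direction in every pool of the plate format. Fold ranges below are the lowest and highest over the 6 pools on that scale.

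Most RNAs read from Meg3 to Mirg in the imprinted Dlk1-Dio3 region were higher in neurons, and low or at 0 in glia. A long maternal transcription unit of this region runs through the noncoding RNAs Meg3, Rian and Mirg and holds a dense cluster of microRNA hairpins. The annotation placed 100 genes between the start of Meg3 and the end of Mirg at chr12:109541001-109749460 (mm10), among them 66 microRNA and 23 snoRNA loci. Mature sequences of loci with high neuron values or shared seeds are printed from RefSeq (GRCm38.p6), in which 60 of the 66 loci were matched, with bases 2 to 8, the seed that pairs with targets, in capitals. The first group shares seeds within the cluster.
miR-379-3p: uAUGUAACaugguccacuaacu
miR-411-3p: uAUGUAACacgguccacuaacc
miR-494-5p: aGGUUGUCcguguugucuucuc
miR-410-5p: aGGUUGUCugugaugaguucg
The second group comes from hairpins at 0 in both glial types in every pool. Of these, miR-453 also shares its seed within the cluster.
miR-493-5p: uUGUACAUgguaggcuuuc
miR-493-3p: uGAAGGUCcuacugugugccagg
miR-679-5p: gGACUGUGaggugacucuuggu
miR-679-3p: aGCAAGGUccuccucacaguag
miR-300-3p: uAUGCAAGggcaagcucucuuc
miR-381-3p: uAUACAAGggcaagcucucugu
miR-382-5p: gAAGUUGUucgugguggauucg
miR-382-3p: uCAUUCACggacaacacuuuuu
miR-453: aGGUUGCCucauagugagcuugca
The whole Mir381 hairpin at chr12:109726822-109726896 on the plus strand shows what a read over such a locus covers, with both mature arms in capitals.
Mir381: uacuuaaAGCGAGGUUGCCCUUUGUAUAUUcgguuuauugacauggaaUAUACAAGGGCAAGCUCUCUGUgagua
Of the mature sequences matched, 20 shared their seed with another of the cluster, in 10 seeds. Reads over a hairpin locus of this library measure the long host transcript and not the mature microRNA, which such libraries do not capture.

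All 100 genes of the interval were above 0 in the neurons of every pool. In 97 of them, 64 of the microRNA and 22 of the snoRNA loci included, every neuron pool was above every glial pool. By the 2-fold count over all 6 pools, 93 of 93 tested genes were higher than in oligodendrocytes and 86 of 93 than in microglia. Over all genes these shares were 26.1% and 25.8%. Genes at 0 in glia entered the 2-fold count through the neurons alone. No share over all genes was computed for the other counts here. Oligodendrocytes were at 0 in all 6 pools for 62 of the 100 genes, microglia for 77, and both for 54. For those genes no fold is given, since it would rest on the 0.1 RPKM added. Mir381 was at 112.7, 109.7, 117.7, 110.5, 109.4 and 134.1 RPKM in neurons and at 0 in both glial types in every pool. Its printed 3p arm and that of Mir300, which was at 79.5 to 123.3 RPKM in neurons and at 0 in glia, differ in their seeds. Mir411 was at 173.7 to 213.7 RPKM in neurons, at 6.23 RPKM in the oligodendrocytes of the iTg pool and at 0 in the other glial groups. Some loci came near the neurons in the microglia of 1 pool. In the iTg pool Mir323 was at 31.3 RPKM in neurons and 20.2 RPKM in microglia, and the microRNA locus Gm25750 at 35.1 and 23.3 RPKM. The mean neuron level of the microRNA loci ran from 3.37 to 1835 RPKM, with a median of 53.1. The host RNAs were high in neurons as well. Meg3 itself, the noncoding RNA at the start of the unit, was at 735.7, 748.1, 804.1, 744.4, 785.5 and 859.8 RPKM in neurons, against 0.604 to 8.44 RPKM in oligodendrocytes and 0.37 to 13.9 RPKM in microglia. Only 1 of the 1664 neurons was listed at 0 for Meg3. Rian, which hosts snoRNAs, was at 89.4 to 151.01 RPKM in neurons and at most 1.87 RPKM in glia. Mirg was at 55.9 to 73.1 RPKM in neurons and at most 0.209 RPKM in glia. Rtl1, a retrotransposon-derived gene on the opposite strand of the region, was at 54.2 to 85.1 RPKM in neurons and at most 1.78 RPKM in glia. The library did not keep strand, so reads of Rtl1 and of its antisense transcript cannot be told apart.

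**Figure D1:**
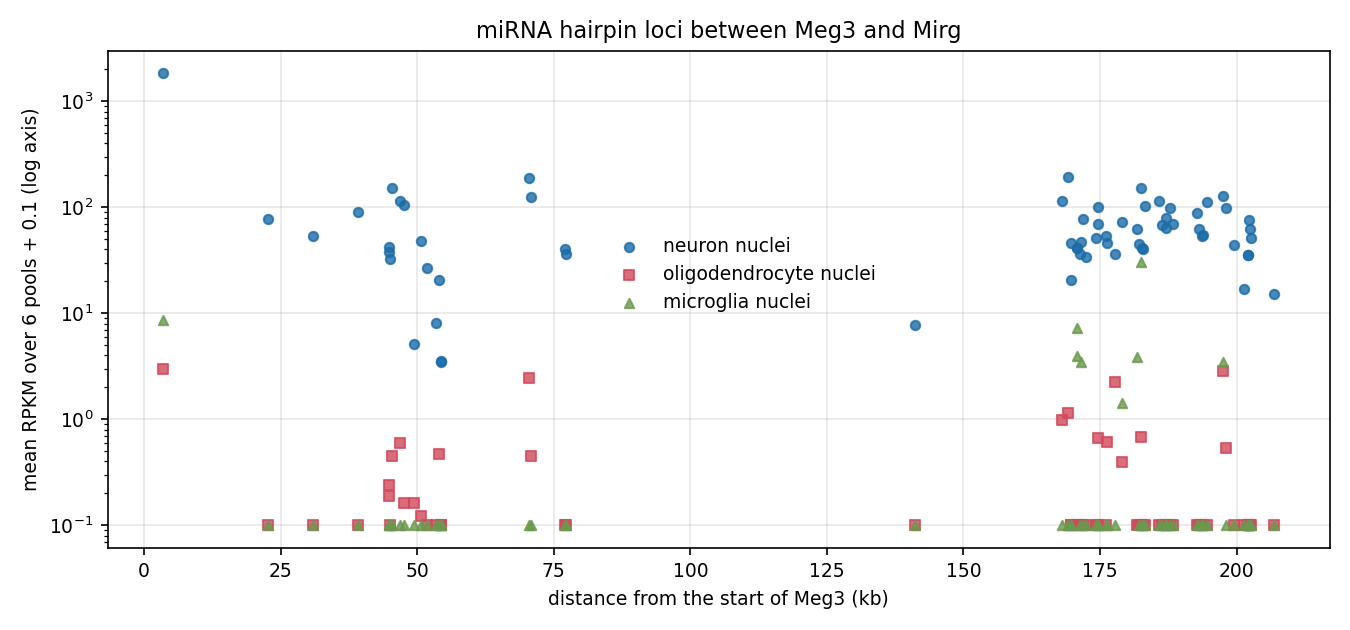
Mean RPKM plus 0.1 over the 6 pools (log axis) of the 66 microRNA hairpin loci, by distance in kb from the start of Meg3, in nuclei labelled Neuron, Oligodendrocyte and Microglia. Neurons are above both glial types at the loci along the unit, and most glial points lie at the bottom of the plot, where the mean is 0.

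Across all genes, the 96-well plates gave 8256 of 25784 tested genes higher in neurons than in oligodendrocytes (32%) and 2868 lower (11.1%). Against microglia 8132 of 26692 were higher (30.5%) and 4839 lower (18.1%). On the 384-well plates 6384 of 22301 were higher than in oligodendrocytes (28.6%) and 1784 lower (8%), and 6907 of 22662 were higher than in microglia (30.5%) and 2201 lower (9.71%). Over all 6 pools, 5782 of 22175 genes were higher than in oligodendrocytes (26.1%) and 1633 lower (7.36%), and 5826 of 22561 were higher than in microglia (25.8%) and 2098 lower (9.30%). The lists higher than either glial type shared 3977 genes, 68.8% of the oligodendrocyte list and 68.3% of the microglia list. The lists of lower genes shared 331 genes, 20.3% and 15.8% of the lists. The median difference of all tested genes was itself above 0, at 0.42 (log2) over oligodendrocytes and 0.20 over microglia on the 96-well plates and at 0.67 and 1.08 on the 384-well plates. Rescaling each group by its upper quartile brought these medians to 0.11, 0.13, 0.31 and 0.90. The list counts below are to be set beside these shares of all genes. A gene at or near 0 in one cell type could pass the 10% filter through the other alone, so the counts partly follow from the filter.

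The 5 neuron markers that characterise the label were higher in neurons than in both glial types in every pool. Snap25, a membrane protein of vesicle fusion (chr2:136713453-136782428, mm10, plus strand), was at 130.4, 131.1, 62.99, 64.3, 66.3 and 118.02 RPKM in neurons. Among single neurons of the 96-well WT pool it ran from 29.1 to 291.1 RPKM, with a median of 123.2 RPKM. Syt1, the calcium sensor of release, was at 93.2, 68.1, 42.96, 39.9, 39.6 and 51.97 RPKM. These values were higher on the 96-well plates, except that Snap25 of the Ehmt1 Δ/+;iTg pool came close to them. Slc17a7, the vesicular glutamate transporter, went the other way, at 71.2, 65.96, 95.6, 113.7, 112.1 and 104.1 RPKM. Rbfox3, the splicing factor known as NeuN, was at 21.2, 22.6, 42.1, 44.1, 41.1 and 37.7 RPKM. Gad1, the GABA-making enzyme, was at 18.8, 12.3, 14.5, 9.88, 11.3 and 11.01 RPKM. Plate format and the depth of glial nuclei change together in this design, so a format difference and a difference of mice cannot be told apart.

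Snap25, Syt1 and Rbfox3 were above 0 in 99.2% to 100.0% of the neurons of each pool. Slc17a7 was above 0 in 86.3% to 96.05% of the neurons of a pool. Gad1 was above 0 in 24.5% (exact Clopper-Pearson 95% interval 19.8% to 29.7%) of the neurons of the 384-well Ehmt1 Δ/+ pool and in 73.5% (67.6% to 78.8%) of those of the 96-well WT pool. Slc17a7 exceeded Gad1 in 73.7% to 83.02% of the neurons of a pool, so the label covers excitatory and inhibitory neurons in a mixture led by the excitatory. Both were above 0 in 69.6% of the neurons of the 96-well WT pool and in 13.4% to 33.96% of those of the other pools. In the 96-well WT pool Gad1 was also above 0 in 57.5% of its oligodendrocytes and 66.7% of its microglia. Under 3 of the 5 markers were above 0 in 1 neuron, which was in the 384-well WT pool.

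**Figure D2:**
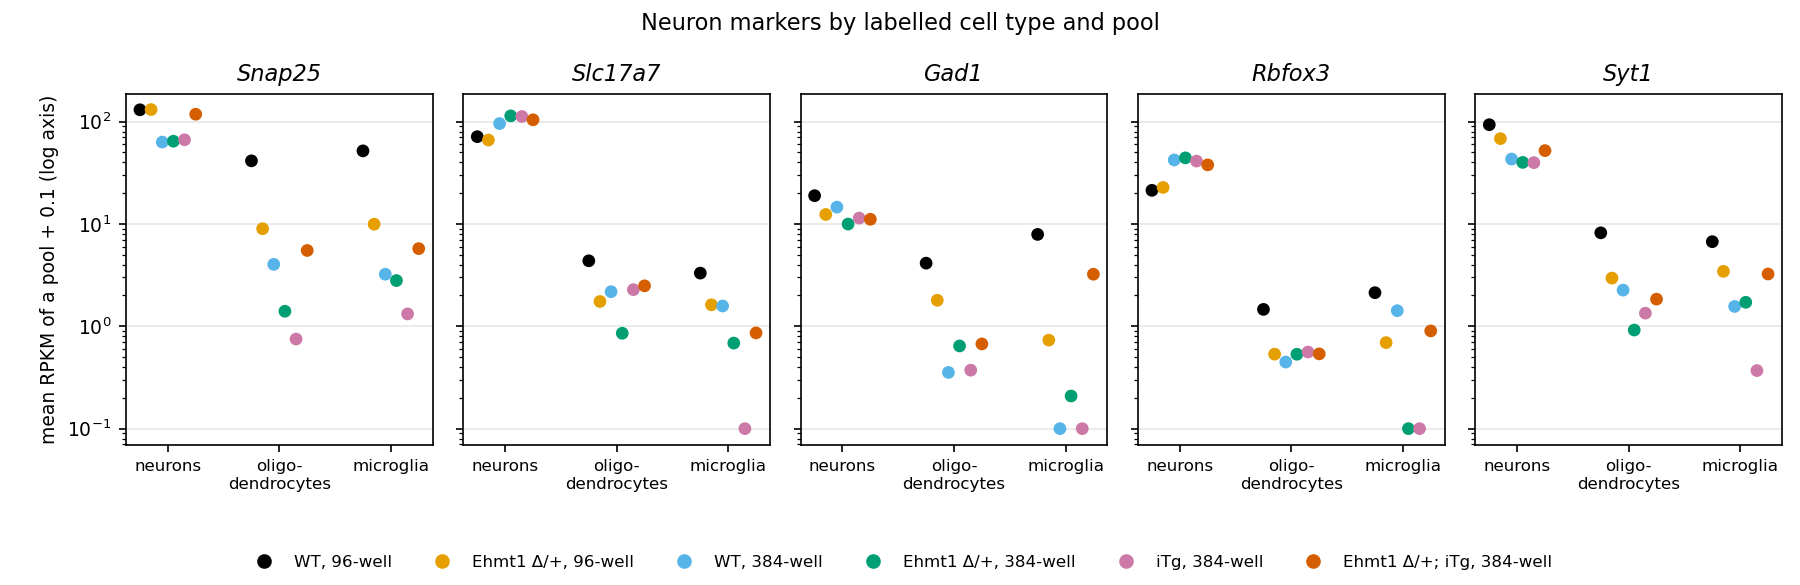
Mean RPKM of the 5 neuron markers (log axis) by pool in nuclei labelled Neuron, Oligodendrocyte and Microglia. Every neuron mean lies above both glial means of its pool, and Snap25 of the 96-well WT glia, at 41.3 and 51.7 RPKM, and Gad1 of its microglia, at 7.80 RPKM, come nearest to their neurons.

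Most genes of vesicle release were higher in neurons, with several exceptions. On the 96-well plates 12 of 18 were higher than in oligodendrocytes and 12 than in microglia, and on the 384-well plates 15 and 15, with none lower. Among all genes the shares higher were 32% and 30.5% on the 96-well plates and 28.6% and 30.5% on the 384-well plates. Unc13a, which primes vesicles, was at 80.8, 89.4, 146.4, 164.8, 171.7 and 127.3 RPKM in neurons. It was at 3.34 to 4.91 RPKM in oligodendrocytes, 16.2- to 49.5-fold lower. Stx1a, a plasma membrane SNARE protein, was at 45.8 to 120.5 RPKM and 5.66- to 15.5-fold lower in microglia. Vamp2, the vesicle SNARE, did not separate the types. It was at 19.4 to 29.4 RPKM in neurons, 19.2 to 32.7 RPKM in oligodendrocytes and 8.63 to 37.6 RPKM in microglia. Sv2a, a vesicle glycoprotein, was at 47.1 to 67.96 RPKM in neurons and 49.5 to 78.97 RPKM in oligodendrocytes, ranges that overlap, but at 5.17 to 27.3 RPKM in microglia.

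Neuronal RNA-binding proteins control splicing and stability of transcripts. Of 12, 10 were higher than in oligodendrocytes on both formats, and 11 and 10 were higher than in microglia. The shares of all genes were 32% and 28.6% over oligodendrocytes and 30.5% over microglia on both formats. Celf5, a splicing regulator, was at 35.98, 35.7, 72.7, 83.001, 80.1 and 65.3 RPKM in neurons and at most 2.07 RPKM in either glial type. Rbfox3 was 14.6- to 94.3-fold higher than in oligodendrocytes. Elavl3, the Hu protein long used as a neuronal antigen, was with Nova1 the exception against oligodendrocytes, with 20.6 to 24.1 RPKM in neurons and 22.97 to 34.8 RPKM there. In microglia it reached 1.40 RPKM at most and was listed at 0 in the WT and Ehmt1 Δ/+;iTg pools of the 384-well plates. Khdrbs3 was at 37.5 to 50.5 RPKM in neurons, yet reached 23.1 RPKM in the microglia of the iTg pool.

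The excitatory list was higher in 11 of 12 genes on the 96-well plates and 12 of 12 on the 384-well plates against either glial type. Camk2a, the calcium-dependent kinase of the postsynapse, was at 117.7, 112.3, 153.3, 165.9, 185.5 and 161.3 RPKM in neurons. It was 4.92- to 90.9-fold higher than in oligodendrocytes, and the smallest of these ratios was that of the 96-well WT pool. Nrgn, a calmodulin-binding protein of dendrites, was the gene that missed on the 96-well plates, with 23.4 RPKM in neurons, 17.7 RPKM in oligodendrocytes and 22.4 RPKM in microglia of the WT pool. In the 384-well pools it was at 24.3 to 27.3 RPKM in neurons and 0.588 to 7.35 RPKM in either glial type. Of 11 inhibitory genes tested, 8 were higher than in oligodendrocytes and 10 than in microglia on both formats. For both lists the shares of all genes were 32% and 28.6% over oligodendrocytes and 30.5% over microglia on both formats. Sst, the peptide of somatostatin interneurons, was at 111.3, 19.4, 88.6, 34.4, 101.5 and 44.2 RPKM in neurons. It missed against microglia on the 384-well plates, where those of the Ehmt1 Δ/+ pool had 32.6 RPKM. Its 3 pools labelled Ehmt1 Δ/+ were all below the 3 labelled Ehmt1+/+, a difference between pools that was not tested.

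Receptors and channels separated neurons from microglia almost without exception. All 14 glutamate receptor genes were higher than in microglia on both formats, and so were all tested GABA-A receptor genes, 12 on the 96-well and 11 on the 384-well plates, and all 15 voltage-gated channel genes. The share of all genes higher than in microglia was 30.5% on both formats, and that over oligodendrocytes 32% and 28.6%. Grin1, the obligatory NMDA receptor subunit, was at 60.6 to 124.7 RPKM in neurons, with its lowest values in the 96-well pools, and at 0.261 to 0.818 RPKM in oligodendrocytes. It was thus 80.9- to 328.8-fold higher in neurons. Gria2, the AMPA receptor subunit that limits calcium entry, was at 78.2 to 129.3 RPKM and 9.47- to 29.1-fold higher than in oligodendrocytes. Against oligodendrocytes 11 and 10 of the 14 glutamate receptor genes were higher, and 1 was lower on both formats. That gene was Grm3, a presynaptic and glial metabotropic receptor, at 18.8 to 25.8 RPKM in neurons and 92.8 to 140.2 RPKM in oligodendrocytes, 4.04- to 6.00-fold more. GABA-A receptor genes were higher than in oligodendrocytes in 12 of 12 on the 96-well and 11 of 11 on the 384-well plates. Gabrd, a subunit of extrasynaptic receptors, was at 17.1 to 28.3 RPKM in neurons and at most 0.455 RPKM in oligodendrocytes.

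Among channels, 14 of 15 were higher than in oligodendrocytes on both formats. Cacna1a, the P/Q-type calcium channel of nerve terminals, was at 65.1 to 119.5 RPKM and 29.95- to 95.1-fold higher than in oligodendrocytes. Kcnq3, a potassium channel subunit, was the exception, with 26.6, 21.7, 11.6, 10.7, 11.3 and 14.3 RPKM in neurons and 28.9, 26.6, 10.4, 9.28, 10.6 and 11.7 RPKM in oligodendrocytes. Of 15 scaffold and adhesion genes, 13 were higher than in oligodendrocytes on both formats, and 14 and 15 were higher than in microglia. For channels and scaffolds the shares of all genes were 32% and 28.6% over oligodendrocytes and 30.5% over microglia. Shank1, a scaffold of the postsynaptic density, was at 61.8, 67.1, 134.97, 148.8, 156.02 and 116.98 RPKM and 25.9- to 77.6-fold higher than in oligodendrocytes. The neurexins, presynaptic adhesion proteins, parted. Nrxn3 was at 79.4 to 98.3 RPKM in neurons and at most 1.22 RPKM in oligodendrocytes. Nrxn2 was at 16.4 to 24.4 RPKM in neurons and 14.8 to 23.7 RPKM in oligodendrocytes.

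The cytoskeleton list had the lowest median difference over oligodendrocytes of the neuronal lists. On the 96-well plates 4 of 12 genes were higher and 2 lower, and on the 384-well plates 7 and 2, while against microglia 8 and 11 were higher. The 96-well share of 4 in 12 is near that of all genes. The genes lower than in oligodendrocytes were Mapt and Ank2. Mapt, which encodes the microtubule protein tau, was at 25.8, 25.5, 32.7, 32.6, 30.1 and 30.7 RPKM in neurons and at 138.5 to 237.99 RPKM in oligodendrocytes. No pool of the one overlapped a pool of the other. Ank2, an adaptor of the axonal membrane, was at 43.5 to 51.7 RPKM in neurons and 103.3 to 116.9 RPKM in oligodendrocytes. In microglia both were below the neurons, at 0.693 to 5.16 RPKM and 4.32 to 10.7 RPKM.

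**Figure D3:**
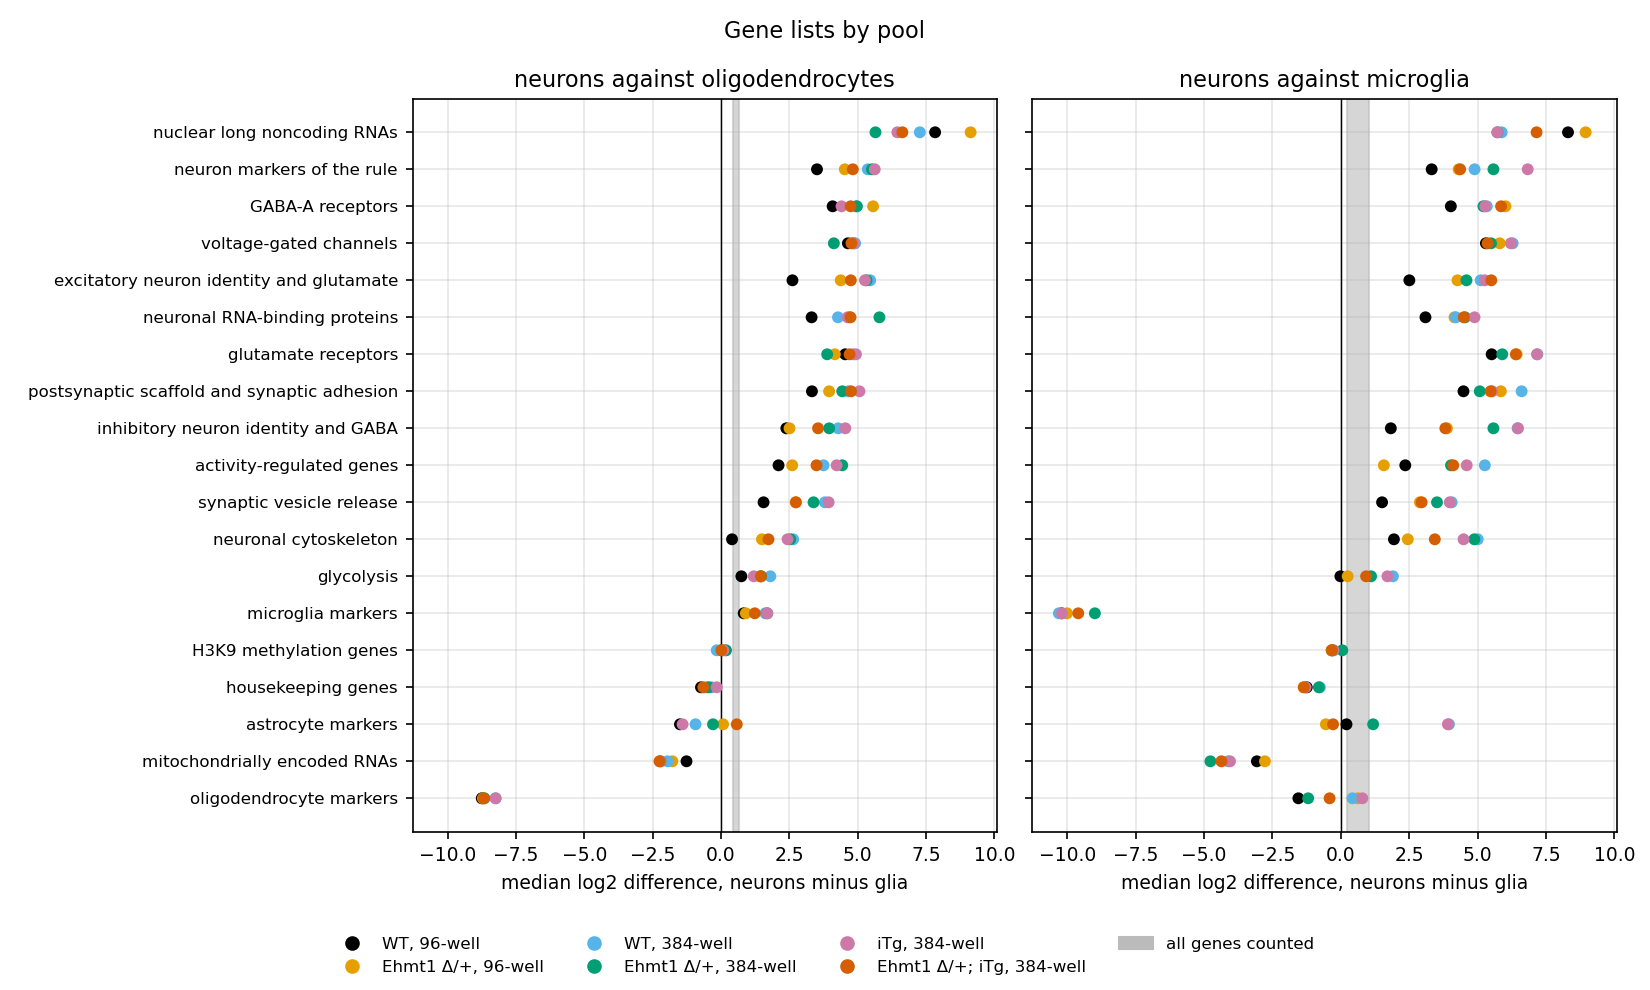
Median log2 difference in mean RPKM plus 0.1, neurons minus oligodendrocytes (left) or microglia (right), over the tested genes of each list, with a point for each pool and a grey band for the range over pools of the median of all counted genes. Synaptic, receptor and channel lists lie right of the band, the 96-well WT pool is often the leftmost point of a list, and mitochondrially encoded RNAs and the markers of the respective glia lie left of 0.

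Long noncoding RNAs kept in the nucleus differed strongly in both directions. On both formats 6 of 9 were higher in neurons than in oligodendrocytes and 1 was lower, and against microglia 6 and 7 were higher and 1 lower. Of all genes, 32% and 28.6% were higher than in oligodendrocytes and 30.5% than in microglia on both formats. The shares lower were 11.1% and 8%, and 18.1% and 9.71%. Snhg11 was at 1023, 1067, 815.4, 710.0, 735.6 and 969.8 RPKM in neurons, with 34.3 RPKM as the highest glial value. Miat was at 156.9, 171.9, 167.9, 175.5, 158.1 and 180.2 RPKM in neurons and at most 3.45 RPKM in glia. Snhg14, the transcript that runs through the Prader-Willi region towards Ube3a, was at 130.1 to 154.4 RPKM and 31.2- to 169.5-fold higher than in oligodendrocytes. Neat1, the scaffold RNA of paraspeckles, was the reverse. It was at 1.06, 1.49, 0.533, 0.8287, 0.598 and 0.722 RPKM in neurons, at 165.6 to 236.9 RPKM in oligodendrocytes and at 6.09 to 22.3 RPKM in microglia. Malat1, the neighbour of Neat1, did not separate neurons from oligodendrocytes. Its neuron values were 4149, 4647, 2755, 2994, 2717 and 3701 RPKM, within 0.680- to 0.973-fold of the oligodendrocytes.

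LincRNA genes, microRNA loci and snoRNA loci had larger shares of higher genes than protein-coding genes, and processed pseudogenes a smaller share. Over all 6 pools, 23.3% of protein-coding genes tested were higher than in oligodendrocytes, 38.6% of lincRNA genes, 37.9% of microRNA loci, 57.1% of snoRNA loci and 16.8% of processed pseudogenes. Against microglia these shares were 22.4%, 39.1%, 40.8%, 55.5% and 17.5%. Over all tested genes they were 26.1% against oligodendrocytes and 25.8% against microglia. Of the 180 microRNA loci higher than in oligodendrocytes, 64 lie between Meg3 and Mirg, where all 64 tested were higher. A locus could be counted when the neurons alone passed the 10% filter, so a share of higher loci partly follows from the filter. Protein-coding genes higher in neurons than in oligodendrocytes spanned a median of 37.1 kb of genome, and 28.1% of them exceeded 100 kb. Those not past 2-fold in either direction spanned 21.5 kb, with 10.1% over 100 kb, and those lower in neurons spanned 33.6 kb, with 21.6%. Against microglia the higher genes spanned 43.02 kb, with 31.1% over 100 kb, and the lower genes 24.9 kb, with 14.0%. Introns hold most of the length of long genes, and the part of unspliced RNA in these differences was not tested.

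The named genes with the largest neuron excess over oligodendrocytes, by their smallest difference over the pools, were Robo3, Col6a1, Rtl1, Adamts10, Aifm3, Srrm3os, Kcnh4, Kcnt1, Vwa5b2 and Col5a1. Where the glial level was near or below the 0.1 RPKM added, as for Robo3 and Adamts10, ranks and folds rest partly on that value. Robo3, a receptor known from axon guidance, was at 20.1, 20.9, 34.2, 40.1, 37.5 and 33.3 RPKM in neurons and at most 0.133 RPKM in oligodendrocytes. Kcnt1, a sodium-activated potassium channel, was at 60.9, 68.2, 137.02, 141.2, 134.9 and 116.8 RPKM, 110.6- to 806.5-fold higher than in oligodendrocytes and 141.9- to 458.3-fold higher than in microglia. Col6a1, a collagen VI chain, was at 26.6 to 113.4 RPKM in neurons and at most 0.504 RPKM in either glial type. Adamts10, a secreted metalloprotease, was at 13.4 to 31.9 RPKM in neurons and at most 0.063 RPKM in oligodendrocytes, yet microglia had it at 12.4 to 34.6 RPKM. Against microglia the leading genes were Ppp2r2cos, Muc3a, Aifm3, Sstr4, Kcnt1, Car4, Vsig2, Cacng8, Col6a1 and Tmem210. Sstr4, a somatostatin receptor, was at 14.4 to 18.9 RPKM in neurons and listed at 0 in the microglia of every pool. Cacng8, an auxiliary subunit of AMPA receptors, was at 15.05 to 20.5 RPKM in neurons and at 0.0303 RPKM in the microglia of the 96-well WT pool, and listed at 0 in the other microglia. Ppp2r2cos was high in oligodendrocytes as well, at 23.6 to 57.4 RPKM against 37.9 to 66.1 RPKM in neurons. Srrm3os and Ppp2r2cos are named as antisense genes, and without strand their reads cannot be told from those of their partners.

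The genes most depleted in neurons were those of the glia. Against oligodendrocytes they were Mag, Tmem63a, Cldn11, Sec14l5, Opalin, Mal, Mobp, Ptgds, Galnt6 and Aspa, and all 10 oligodendrocyte markers were lower in neurons on both formats. Mag, a protein of the myelin sheath, was at 0.083 to 0.413 RPKM in neurons and 520.5 to 1124 RPKM in oligodendrocytes, a difference of 1015- to 6143-fold. Its neuron level was near the 0.1 RPKM added, so the size of this fold rests partly on that value. Against microglia they were Fgd2, Stab1, C1qb, Tmem119, Arhgap45, Siglech, Fcrls, Adap2, Cx3cr1 and Cd33, and all 11 microglia markers were lower in neurons on both formats. C1qb, a chain of complement C1q, was at 359.0 to 621.0 RPKM in microglia. In neurons it was at 0.388 RPKM at most and listed at 0 in the iTg pool. Of the markers of cells that no label names, Slc1a2, a glutamate transporter best known from astrocytes, was at 51.6, 49.8, 23.97, 25.96, 22.4 and 40.7 RPKM in neurons, above both glial types. The other 5 astrocyte markers were low there, with Gfap at 0.057 to 0.523 RPKM, Aqp4 at 0.0164 to 0.275 RPKM and Aldh1l1 at 0.935 to 2.30 RPKM. Slc1a3 was lower in neurons than in both glial types on both formats. Mural markers were too low to be tested. Of the 4 endothelial markers only Tek, the angiopoietin receptor, was higher, at 0.834 to 3.75 RPKM in neurons and at most 0.166 RPKM in glia. Pecam1 was lower in neurons than in microglia on both formats and neither higher nor lower than in oligodendrocytes. Cldn5 was too low to be tested. Flt1 was tested only against microglia on the 96-well plates, where it was neither.

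Mitochondrially encoded RNAs were lower in neurons, and most housekeeping genes were not higher. All 15 mitochondrially encoded RNAs were lower in neurons than in oligodendrocytes on the 96-well plates and 14 of 15 on the 384-well plates, and all 15 were lower than in microglia on both. Their median differences were -1.55 and -2.14 (log2) against oligodendrocytes and -2.83 and -4.36 against microglia. Summed over the 15, the pools ran from 413.5 to 2072 RPKM in neurons, 1435 to 9444 RPKM in oligodendrocytes and 3062 to 43263 RPKM in microglia. For the 96-well nuclei the study used the ratio of mitochondrial reads in its quality control. These are isolated nuclei, and the part of RNA carried over from outside the nucleus was not tested. The small ribosomal RNA mt-Rnr1 was at 680.6, 191.2, 343.8, 701.1, 832.5 and 409.8 RPKM in neurons, at 673.2 to 3870 RPKM in oligodendrocytes and at 1422 to 18105 RPKM in microglia. Of 10 housekeeping genes, 2 were lower in neurons than in oligodendrocytes on both formats, among them the gene of the purine salvage enzyme Hprt, and 5 were lower than in microglia. The shares of all genes lower were 11.1% and 8% against oligodendrocytes and 18.1% and 9.71% against microglia. Gapdh, a glycolytic enzyme gene, was the only one higher, than in oligodendrocytes on the 96-well plates, at 9.46 and 7.83 against 4.16 and 2.84 RPKM. Hprt was at 61.8, 54.4, 23.98, 25.4, 36.9 and 22.6 RPKM in neurons and at 251.8, 214.2, 141.2, 139.1, 208.5 and 91.4 RPKM in oligodendrocytes. Among glycolysis genes, 5 and 8 of 15 were higher than in oligodendrocytes and 4 and 5 than in microglia. These shares are near those of all genes, 32% and 28.6% over oligodendrocytes and 30.5% over microglia on both formats, apart from the 8 of 15, which is above it. Pfkp, a form of the committing enzyme phosphofructokinase, was at 44.6 to 86.2 RPKM in neurons and 12.5- to 33.9-fold higher than in oligodendrocytes. Eno2, the neuron-specific enolase, was at 43.2 to 69.9 RPKM and 5.51- to 39.02-fold higher. Pkm, the pyruvate kinase gene, was lower than in oligodendrocytes on both formats, at 22.01 to 29.5 against 59.2 to 130.2 RPKM.

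Activity-regulated genes, which are transcribed within minutes of neuronal firing, were divided by plate format. On the 96-well plates 5 of 9 tested were higher than in oligodendrocytes, and on the 384-well plates 10 of 10, while against microglia 7 of 9 and 9 of 10 were higher. The shares of all genes were 32% and 28.6% over oligodendrocytes and 30.5% over microglia on both formats. Arc, an immediate early gene of the synapse, was at 30.3, 14.5, 118.7, 113.1, 85.1 and 88.3 RPKM in neurons. Its oligodendrocyte values were also higher on the 384-well plates, at 15.9, 13.05, 53.8, 33.6, 41.03 and 34.6 RPKM. Nr4a1, an early nuclear receptor, was at 27.3, 21.3, 81.03, 86.5, 68.9 and 51.8 RPKM in neurons and 3.96- to 8.68-fold higher than in oligodendrocytes. Junb, a subunit of the AP-1 factor, was lower than in microglia on the 96-well plates, at 1.72 and 0.738 against 5.40 and 8.13 RPKM.

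Most genes of H3K9 methylation, the process GLP takes part in, were counted as neither higher nor lower in neurons. Of 11, 1 was higher and 2 lower than in oligodendrocytes on the 96-well plates and 0 and 2 on the 384-well plates, and against microglia 0 were higher on both and 2 and 0 lower. Over all genes, 32% and 28.6% were higher than in oligodendrocytes and 11.1% and 8% lower. Against microglia 30.5% were higher on both formats and 18.1% and 9.71% lower. The list thus had few higher genes, whereas its counts of lower genes are too small to set it apart from all genes. The median differences lay between -0.38 and 0.08 (log2), below the median of all genes in each comparison. Ehmt1 (chr2:24789928-24919614, mm10, minus strand) was at 18.7, 31.2, 19.5, 31.7, 20.7 and 33.9 RPKM in neurons. It was at 17.5, 25.8, 21.8, 32.6, 20.9 and 28.3 RPKM in oligodendrocytes and at 16.8, 25.1, 15.7, 20.8, 23.8 and 26.4 RPKM in microglia. Within the neurons and within the oligodendrocytes every pool labelled Ehmt1 Δ/+ was above every pool labelled Ehmt1+/+, so the gene-level value went against the label. It counts reads over the whole gene and not the deleted part, and pools are named here as labelled. Ehmt2, the gene of the partner enzyme G9a, was at 26.6, 25.5, 71.4, 66.2, 66.8 and 46.95 RPKM in neurons, 1.24- to 1.42-fold of the oligodendrocytes. Setdb2 and Suv39h1, both methyltransferase genes, were lower than in oligodendrocytes, with 0.614 to 1.49 against 1.62 to 5.39 RPKM and 1.503 to 2.92 against 4.65 to 7.15 RPKM.

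Neuronal RNA was also read in the labelled glia. The glial share of Snap25 and Camk2a was highest in the 96-well WT pool, and that of Meg3 was lowest in both 96-well pools. Snap25 was above 0 in 100.0% of oligodendrocytes and 97.2% of microglia of the 96-well WT pool, at 31.7% and 39.6% of the neuron level. In the other pools the oligodendrocyte level was 6.78%, 6.24%, 2.03%, 0.981% and 4.58% of that of the neurons, and the microglia level 7.51%, 4.97%, 4.2%, 1.84% and 4.78%. Camk2a showed the same order at the top, with 20.2% and 22.1% in the WT and 6.98% and 9.61% in the Ehmt1 Δ/+ pool of the 96-well plates, and at most 2.07% on the 384-well plates. The nuclear Meg3 was lowest in the 96-well pools. It was at 0.131% and 0.0807% of the neuron level in oligodendrocytes of the 96-well plates, and at 0.565%, 1.13%, 0.671% and 0.511% on the 384-well plates. In microglia it was at 0.0553% and 0.0495%, and at 0.592%, 1.87%, 0.600% and 0.396%. After thinning to equal reads within a format, Meg3 was above 0 in 13.7% and 18.3% of oligodendrocytes on the 96-well plates, at 200000 reads, and in 54.4%, 71.7%, 67.2% and 66.7% on the 384-well plates, at the lower number of 20000 reads. The part of free RNA or of neighbouring nuclei in these values was not tested. The fold differences of Snap25 and Camk2a in the 96-well WT pool, 3.15- and 4.92-fold over oligodendrocytes, were the smallest of the 6 pools.

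**Figure D4:**
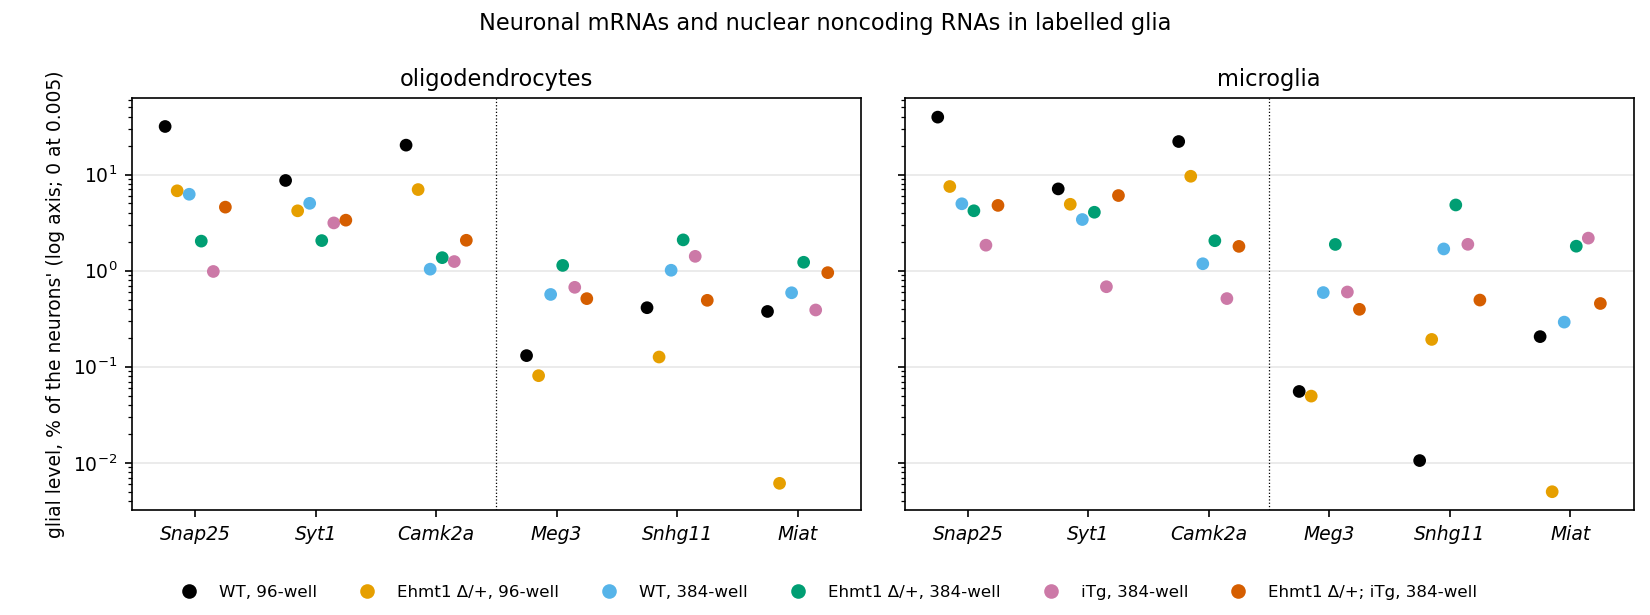
Mean level in oligodendrocytes (left) and microglia (right) as a percentage of the neuron level of the same pool (log axis, 0 drawn at 0.005) for the messenger RNAs Snap25, Syt1 and Camk2a and the nuclear noncoding RNAs Meg3, Snhg11 and Miat, with a point for each pool. The 96-well WT pool is highest for Snap25, Syt1 and Camk2a, whereas for Meg3 the 96-well pools are the lowest points.

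High sums of the markers of other cells were rare in single neurons. Summed over the 10 oligodendrocyte markers the median neuron had 11.3 RPKM, and over the 11 microglia markers 8.99 RPKM. These sums were 0 in 28 and 60 of the 1664 neurons. The astrocyte markers had a median sum of 27.3 RPKM and a sum of 0 in 94 neurons. The precursor markers summed to 0 in 1447 neurons, the endothelial markers in 670 and the mural markers in 1471. By limits set after seeing the values, of 300 RPKM for oligodendrocyte and microglia and 100 RPKM for precursor markers, 4 nuclei stood apart. In the 96-well pool labelled Ehmt1 Δ/+, a pair of nuclei labelled Neuron had precursor marker sums of 1374 and 1070 RPKM, with 27.6 RPKM as the next highest of all neurons. Pdgfra, the receptor that marks oligodendrocyte precursors, was at 343.4 and 339.7 RPKM there, and Meg3 at 30.2 and 4.39 RPKM. Another nucleus of that pool had an oligodendrocyte marker sum of 398.1 RPKM together with Meg3 at 1036 RPKM. In the 384-well pool labelled Ehmt1 Δ/+, 1 nucleus had a microglia marker sum of 639.3 RPKM with Meg3 at 650.7 RPKM. The next highest sums of these 2 lists were 144.4 and 74.2 RPKM. The highest mural sum was 89.7 RPKM, with 22.9 RPKM next, in a nucleus of the Ehmt1 Δ/+;iTg pool with Meg3 at 1246 RPKM. The highest astrocyte sum was 379.1 RPKM, with 254.9 RPKM next, in a nucleus of the 96-well WT pool with Meg3 at 456.5 RPKM. The only neuron listed at 0 for Meg3, in the 96-well WT pool, also had Snhg11 at 0.135 RPKM. Its Snap25 was at 58.7 RPKM, and it had Sox11, a factor of young neurons, at 135.9 RPKM and Calb2, the calretinin gene, at 133.3 RPKM. Without the 4 nuclei, 8231 genes were higher and 2881 lower than in oligodendrocytes on the 96-well plates and 6380 and 1783 on the 384-well plates. Without the nuclei highest in mural and astrocyte markers as well, the numbers were 8230 and 2883, and 6378 and 1781.

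Neurons showed more genes than glia at equal reads. Thinned to 200000 reads on the 96-well plates, the median neuron had 12645 and 12925 genes above 0 in the lowest and highest pool, against 7040 and 7477 in oligodendrocytes and 7642 and 8096 in microglia. Thinned to 20000 reads on the 384-well plates, neurons had 4818 to 5422 genes, oligodendrocytes 3061 to 3678 and microglia 3042 to 3943, so the pool medians of neurons did not overlap those of glia. Before thinning, median read totals, estimated from the RPKM steps, were 323272 to 397880 in neurons of all pools. Glia had 441701 to 510639 reads on the 96-well plates and only 39939 to 54876 on the 384-well plates, where 6 oligodendrocytes and 3 microglia were too shallow to be thinned.

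**Figure D5:**
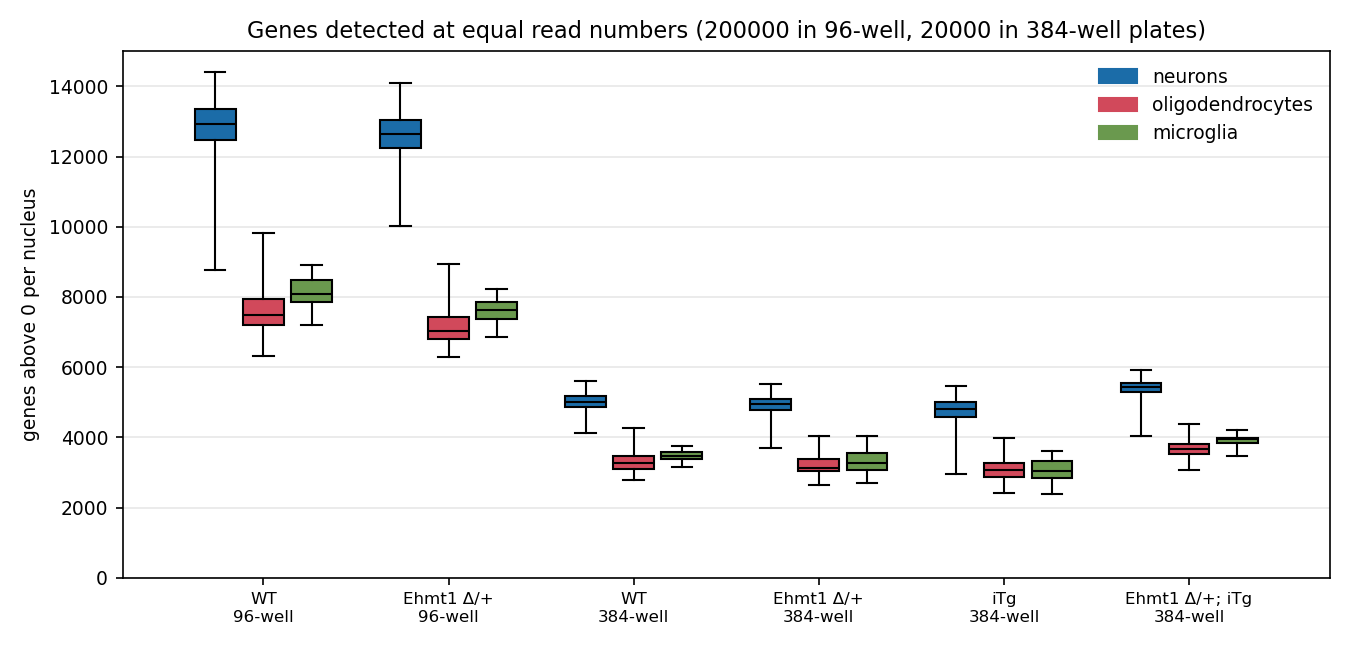
Genes above 0 per nucleus after thinning to 200000 reads (96-well plates) or 20000 reads (384-well plates), by pool and labelled cell type, with boxes from the lower to the upper quartile, a line at the median and whiskers to the lowest and highest nucleus. Neurons lie above both glial types in every pool, with medians of 12645 to 12925 genes on the 96-well plates.

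Whether the neuron to oligodendrocyte difference of a gene depended on genotype was tested over the 6 pools with limma and Benjamini-Hochberg adjustment over 22175 genes. The fit held plate format, the Ehmt1 allele and the induced transgene, and left 2 residual degrees of freedom. No gene passed an adjusted p of 0.05 for the allele or the transgene (0% called for each). At an unadjusted p under 0.05 there were 957 genes for the allele (4.32%) and 1567 for the transgene (7.07%), and the lowest adjusted p was 0.914 and 0.386. For Ehmt1 itself the transgene coefficient was 0.22 (log2, SE 0.293, 95% interval -0.60 to 1.0, limma adjusted p = 0.927) and the allele coefficient 0.19 (limma adjusted p = 0.945). The interval of the first still includes a 2-fold change of the ratio of neurons to oligodendrocytes. Genes with the lowest p were mostly at low levels. Far2os1, ranked first for the allele, was at 6.57, 9.76, 3.83, 5.30, 3.44 and 5.25 RPKM in neurons and at 0.0304, 2.72, 0, 6.81, 0 and 2.37 RPKM in oligodendrocytes (coefficient -4.52, SE 0.471, limma adjusted p = 0.914). Spdya, ranked first for the transgene, was at 1.26 to 3.07 RPKM in neurons and listed at 0 in the oligodendrocytes of both induced pools (coefficient 4.55, SE 0.344, limma adjusted p = 0.386). Tubb3, a neuronal tubulin, was at 10.4, 4.59, 13.7, 11.3, 12.4 and 11.3 RPKM in neurons, so the oligodendrocytes, at 13.7, 4.97, 3.21, 1.71, 21.6 and 11.2 RPKM, set its coefficient of -2.75 (SE 0.32, limma adjusted p = 0.481). Further genes with the lowest p for the allele were Calr3, Pcdhb9, Krt20, Sgms2, Scarf1, Wdr31, Zfp773, Smco1 and Zfp454. For the transgene they were Rab26os, Dhx58, Cnnm1, Gpr4, Nr1h3, Thpo, Pnldc1 and Sptssa.

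The share of nuclei labelled Neuron was 69.9%, 72.01%, 77.03%, 82.5%, 75.1% and 75.7% of the pools. It averaged 76.7% ± 5.31 in the pools labelled Ehmt1 Δ/+ and 74.02% ± 3.70 in the Ehmt1+/+ pools (SD, n = 3 each). The difference of 2.70 percentage points over all pools was within the spread between pools (exact permutation test, two-sided, p = 0.5, where 3 pools against 3 cannot go below 0.1). Plate format and transgene match the pools in 3 pairs, and the share was higher in the pool labelled Ehmt1 Δ/+ in 3 of 3, by 2.12, 5.45 and 0.539 points (exact sign-flip permutation test, two-sided, p = 0.25, the smallest that 3 pairs allow). Without the 384-well pool labelled Ehmt1 Δ/+ the unpaired difference was -0.175 points, with the WT pool of its plates then unmatched. The shares follow the removal of nuclei of weak type by the study, and do not measure cell numbers in the tissue.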

How the data were processed

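Per the labels and the study's methods, DAPI-positive nuclei from an iodixanol gradient were sorted into plates and sequenced by RamDA-seq, without strand. Reads were mapped to mm10 with HISAT2 2.0.4 and counted on Gencode genes with featureCounts of Subread 1.5.0, and the authors deposited RPKM values of 52636 genes per nucleus, 1 table per plate format. The RPKM steps gave read totals per nucleus. With 31.4% (96-well) and 25.3% (384-well) of values no whole multiple of 1 read (tolerance 0.001), no count test was run on these values.

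Here, RPKM were averaged per pool and label (Python 3.11.15, numpy 2.4.6, pandas 2.3.3, SciPy 1.17.1). A gene was compared, as log2(mean RPKM + 0.1) within each table, where in every pool at least 10% of neurons or of the glial type had it above 0. Pools, not nuclei, were the samples, so p-values measure only the spread between these pools. limma 3.58.1 (R 4.3.3) was fitted to the neuron minus oligodendrocyte difference of each pool, after tests on simulated data. Exact intervals of shares cover counting error only. No 2 nuclei held identical values.

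Members and gene lists were chosen with earlier results of these data known. Named genes were the markers, Ehmt1 and Ehmt2, the 10 genes per direction and glial type with the largest smallest difference over pools (predicted genes, pseudogenes and small RNAs passed over), up to 4 highest members and the opposite members of a list, and the 5 lowest p per direction of an uncalled test. The microRNA loci, Rian, Mirg, Snhg14, Kcnq3, Vamp2, Sv2a, Elavl3, Nrxn2, Nrgn, Gapdh, Gfap, Sox11, Calb2 and the single nuclei were chosen after their values were seen. 2 listed genes whose symbol matched more than 1 identifier were left out. Some listed genes are not reported here.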

Additional observations from a re-analysis of the deposited data

Results flagged for a closer look

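Rbfox3 in neurons of the 96-well pool labelled Ehmt1 Δ/+ was lower in nuclei of 1 of the 4 plate codes. The means were 23.4, 23.2, 20.9 and 23.1 RPKM, and the gap of the value of 20.93 RPKM to the nearest was large beside the whole range of the 4. That plate code held 71 neurons, 3 of them among the 4 nuclei with markers of other cells. Of 12 groups of 4 plate codes checked, 1 was marked in this way, and chance marks about 1 in 20.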

How the results depend on the processing

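For single nuclei, no paired analysis was possible because their replicate numbers only count nuclei within a pool. Whole pools were paired by plate format and transgene, terms that the limma fit already holds, and the paired difference in the share of neurons was 2.70 points (exact sign-flip permutation p = 0.25). Averaging log2(RPKM + 1) over nuclei in place of RPKM lowered the counts of genes lower in neurons to 1563 and 2363 on the 96-well plates (against oligodendrocytes and microglia) and to 850 and 990 on the 384-well plates. With no filter on low values 10790 genes were higher than in microglia on the 384-well plates. The other 51 alternative counts stayed within 1.5 times. Leaving out 1 pool in turn gave 9731 to 9803 genes higher and 3407 to 3722 lower than in oligodendrocytes, and 9634 to 9867 and 5990 to 6610 against microglia, on the 96-well plates. On the 384-well plates the ranges were 6852 to 7056 and 1884 to 1982, and 7498 to 7874 and 2388 to 2547, since fewer pools have to pass. The unpaired difference in the share of neurons ran from -0.175 to 5.06 points, and reversed to -0.175 without the 384-well pool labelled Ehmt1 Δ/+. Leaving out the neurons with markers of other cells and pairing the pools were chosen after seeing the data. The limma counts stayed at 0 under the 12 alternatives that kept all pools. Fits without 1 pool kept 1 residual degree of freedom and could hardly call a gene, so their counts show nothing about stability. Leaving out either 96-well pool gave the same fit, since the plate format term takes up the remaining one. The Ehmt1 coefficient ran from 0.158 to 0.285 over the fits without 1 pool. Thinning to 20000 reads lowered the shares of neurons with a marker above 0 on the 384-well plates (WT, Ehmt1 Δ/+, iTg, Ehmt1 Δ/+;iTg) to 74.04%, 83.3%, 81.8% and 83.2% for Slc17a7, 26.3%, 18.3%, 21.8% and 21.1% for Gad1 and 94.04%, 95.8%, 95.6% and 94.6% for Rbfox3. In the Ehmt1 Δ/+ pool Snap25 fell to 97.7% and Syt1 to 98.7%. Marker levels of the 96-well neurons were also compared without 1 plate code, in 40 values, against the spread between plate codes. A level with or without 1 code is an average over codes, so its shift cannot exceed their range. That comparison therefore cannot show whether the levels depend on a plate code. Pools of 16 to 36 microglia and the shallow glia of the 384-well plates limit the precision of their means.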
